A study of Mus musculus with 6 samples.

Results

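The liver keeps blood glucose up between meals by making glucose and by releasing it from glycogen, and 10 genes of that system were followed here in the livers of aged mice with and without chromogranin A (CgA). The genes were taken by symbol from the 32212 rows of the deposited table, and all 10 were found. They were Pck1, G6pc, Fbp1 and Pcx, which encode the gluconeogenic enzymes, Slc2a2 and Slc37a4, which encode glucose and glucose 6-phosphate transporters, Gys2 and Pygl, which encode the liver enzymes of glycogen synthesis and breakdown, and Gcgr and Crtc2, which encode the glucagon receptor and a coactivator of cAMP-driven transcription. CgA is the secretory prohormone encoded by Chga, and the comparison asks how liver RNA differs in mice that lack it (CgA-KO) from that in wild type (WT) mice. Livers of 3 WT and 3 CgA-KO mice were sequenced, 1 library per mouse. All were male C57BL/6 mice, 2 yr old, kept on normal chow under a 12 hr light and dark cycle. How the CgA-KO allele was made is not given in the sources used here, and the labels give neither the hour of collection nor whether the mice had been fed.

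Gluconeogenesis turns lactate, alanine and other precursors into glucose. Pyruvate is carboxylated to oxaloacetate in mitochondria, oxaloacetate is converted to phosphoenolpyruvate, and a run of reversed glycolytic steps ends at glucose 6-phosphate, which is hydrolysed in the endoplasmic reticulum so that free glucose can leave the cell. In fasting, glucagon acts through its receptor, cAMP and CREB to raise transcription of Pck1 and G6pc and to start glycogen breakdown. After a meal, insulin opposes both and glucose is stored as glycogen or burned by glycolysis.

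Total counts ranged from 10558616 to 31087453 per library, and the 10 genes together took 0.358% to 0.625% of them. Each gene had at least 594 counts in every library, a level at which counting error is 4.1%, so the spread between mice, and not depth, limits the values that follow. Levels are library-scaled counts (CPM, with TMM factors), with SD over 3 mice. The genotypes were compared by edgeR's quasi-likelihood fit on 13867 genes, p-values were adjusted over all of them by the Benjamini-Hochberg method, and a gene was called at an adjusted p under 0.05. Chga itself had 0 counts in all 6 libraries, which allows up to 0.284 CPM in the shallowest, so it could not check the genotype labels. The 14 hepatocyte marker genes found in the table were all above 0 in some library, and their summed level was 71337 to 115736 CPM in WT and 63579 to 100827 CPM in CgA-KO livers. None of the 14 was called by edgeR, while 1 was at an unadjusted p under 0.05 and 1 was called by DESeq2. Their log2 fold change was negative for 12 of the 14 and positive for 2, with a median of -0.20. Macrophage markers differed far more. Their summed level was 126 to 332 CPM in WT and 1261 to 1966 CPM in CgA-KO livers, and 9 of 10 were called higher. In whole liver, fewer cells of a type and less RNA per cell cannot be told apart.

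Of the 10 genes of glucose output, 2 were lower in CgA-KO livers and none was higher. The pair that fell was Gys2, the liver glycogen synthase, and Slc2a2, which encodes GLUT2, the glucose transporter of the hepatocyte surface. None was higher at an unadjusted p under 0.05 or in DESeq2 either. Over all genes tested, 12.4% were called, 8.60% higher and 3.84% lower. DESeq2 called 3 of the 10, all lower, with Gcgr as the addition, and 17.2% of all genes to which it gave an adjusted p. The WT and CgA-KO livers did not overlap for Gys2, Slc2a2 and Gcgr, which is 3 of 10 genes, near the 33.6% of all genes tested that were separated in this way. The log2 fold change was negative for 7 of the 10 genes, against 50.6% of all genes, and its median was -0.35, against -0.01 for all genes. Among the 14 hepatocyte markers it was negative for 12, with a median of -0.20. The part of hepatocyte content in the median of the 10 genes was not tested. None of the 4 gluconeogenic enzyme genes passed the test in edgeR or in DESeq2, and none was at an unadjusted p under 0.05 in edgeR.

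**Figure D1:**
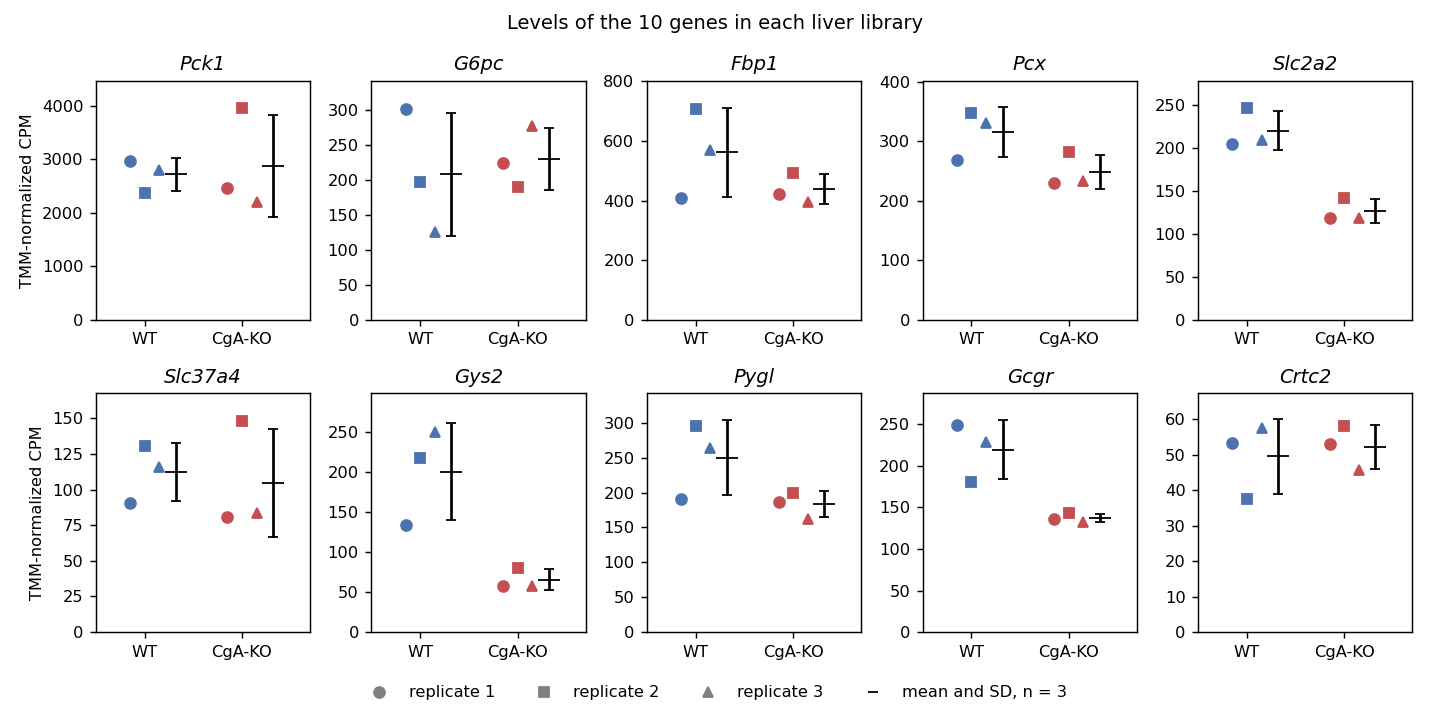
Level of each of the 10 genes in every library, as CPM with TMM scaling on a linear axis from 0; points are single livers (WT and CgA-KO, 3 each), cross-bars are means and error bars SD. Gys2, Slc2a2 and Gcgr are the genes whose CgA-KO points all lie below the WT points; Pck1, the most abundant, overlaps, with 1 high CgA-KO liver at 3951 CPM.

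Pck1 encodes the cytosolic phosphoenolpyruvate carboxykinase, the enzyme that commits oxaloacetate to glucose. It lies on chromosome 2 of GRCm38 from 173153048 to 173159273, on the plus strand. It reached 2963, 2374 and 2806 CPM in the WT livers and 2463, 3951 and 2191 CPM in the CgA-KO livers, here and below in the order of replicates 1, 2 and 3. CgA-KO replicate 2 was the highest of the 6 and CgA-KO replicate 3 the lowest, so the genotypes overlapped. The means were 2714 ± 305 and 2868 ± 948 CPM (SD, n = 3), a log2 fold change of 0.08 with a 95% interval from -0.62 to 0.77 (edgeR adjusted p = 0.897). Without CgA-KO replicate 2 the log2 fold change was -0.19. Pck1 held 60.6% of all counts of the 10 genes.

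G6pc encodes the catalytic subunit of glucose 6-phosphatase, the last step shared by gluconeogenesis and glycogen breakdown. It lies on chromosome 11 from 101367561 to 101377903, on the plus strand. Its level was 301, 197 and 126 CPM in the WT and 224, 189 and 277 CPM in the CgA-KO livers. All 3 CgA-KO values fell inside the WT range. The means were 208 ± 88.1 and 230 ± 44.1 CPM (SD, n = 3), and the log2 fold change was 0.14, with an interval from -0.58 to 0.87 (edgeR adjusted p = 0.809).

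The promoters of these 2 classical fasting genes are shown with that of Slc2a2, the transporter gene that fell, because glucagon acts on transcription through cAMP response elements. Each line gives the 250 bases before a RefSeq transcription start on GRCm38.p6, on the plus strand, at chr2:173152823-173153072 for Pck1, chr11:101367466-101367715 for G6pc and chr3:28697653-28697902 for Slc2a2. Capitals mark the cAMP response half-site TGACG or its reverse complement in Pck1 and the D-box TTACGTAA in G6pc, while Slc2a2 has no capitals because none of the letters searched was found. The RefSeq starts of Pck1 and G6pc lie inside the GENCODE genes given above.
Pck1: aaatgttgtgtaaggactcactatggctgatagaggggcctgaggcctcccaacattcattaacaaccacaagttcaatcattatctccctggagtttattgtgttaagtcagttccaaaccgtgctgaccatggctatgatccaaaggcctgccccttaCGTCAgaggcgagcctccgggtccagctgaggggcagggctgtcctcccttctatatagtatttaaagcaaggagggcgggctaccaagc
G6pc: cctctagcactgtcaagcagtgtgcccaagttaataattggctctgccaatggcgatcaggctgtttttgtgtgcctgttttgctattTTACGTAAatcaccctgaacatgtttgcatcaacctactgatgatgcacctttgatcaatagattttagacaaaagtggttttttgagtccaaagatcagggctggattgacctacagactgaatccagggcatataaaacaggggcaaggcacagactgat
Slc2a2: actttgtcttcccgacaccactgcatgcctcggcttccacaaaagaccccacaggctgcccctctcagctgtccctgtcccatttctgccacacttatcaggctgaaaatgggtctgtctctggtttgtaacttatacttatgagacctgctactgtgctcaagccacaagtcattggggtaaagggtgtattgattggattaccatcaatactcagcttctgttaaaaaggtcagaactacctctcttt

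The half-site in Pck1 lies 90 to 86 bases before the start, and the letters TTACGTAA in G6pc lie 162 to 155 bases before it. TTACGTAA was searched as the D-box, which PAR bZIP clock-output factors bind, but which factors bind this stretch of G6pc was not tested. The cAMP response element was searched only as TGACG and TGACGTCA, so other forms of it would be missed. Both strands were searched in 32851 RefSeq windows of the same length, and 17.8% of them held TGACG. The windows of 8 of the 10 genes were found, with Gys2 and Crtc2 not among them, and the half-site occurred in Pck1, Slc37a4 and Pygl. These genes had 11 windows, 3 for Slc37a4 and 2 for Pcx, and a gene counted if any of its windows matched. The shares over all windows are per window, so genes with several starts had more chances of a match. The full palindrome TGACGTCA, which contains the half-site, occurred in 1.55% of all windows and in 0 of the 8 genes. The D-box occurred in 0.113% of all windows and in G6pc alone among the 8, the E-box CACGTG in 6.02% and in Pcx alone, and the forkhead element TGTTTAC in 3.17% and in none. These matches describe letters only and not sites in use, and the absence of letters in a window of this length says nothing about the factor.

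Fbp1 encodes fructose 1,6-bisphosphatase, which reverses the phosphofructokinase step (chromosome 13, 62864753 to 62888282, minus strand). It stood at 407, 707 and 571 CPM in WT and at 424, 494 and 396 CPM in CgA-KO livers. WT replicate 1 lay among the CgA-KO values and the other WT livers above them. The log2 fold change was -0.36, with an interval from -0.95 to 0.23 (edgeR adjusted p = 0.397). Pcx encodes pyruvate carboxylase, the mitochondrial entry step (chromosome 19, 4510472 to 4621752, plus strand). Its values were 269, 348 and 331 CPM in WT and 230, 282 and 233 CPM in CgA-KO livers. A single CgA-KO liver, replicate 2, exceeded the lowest WT liver. The means of Pcx were 316 ± 41.8 and 248 ± 29.0 CPM (SD, n = 3), with a log2 fold change of -0.35 and an interval from -0.83 to 0.14 (edgeR adjusted p = 0.320).

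Slc2a2 lies on chromosome 3 from 28697903 to 28731359, on the plus strand, and its product GLUT2 carries glucose across the hepatocyte membrane in both directions. Its level was 205, 246 and 209 CPM in WT and 118, 142 and 119 CPM in CgA-KO livers. Every CgA-KO liver lay below every WT liver, and the values within each genotype were close. The mean fell from 220 ± 22.6 to 126 ± 13.6 CPM (SD, n = 3), 1.74-fold lower, with a log2 fold change of -0.80 (SE 0.198, interval from -1.25 to -0.35, edgeR adjusted p = 0.0327). The call was lost without WT replicate 2 (log2 fold change -0.71, adjusted p = 0.0679), WT replicate 3 (-0.84, adjusted p = 0.116), CgA-KO replicate 1 (-0.72, adjusted p = 0.127) and CgA-KO replicate 3 (-0.73, adjusted p = 0.101), all in edgeR, with no filter (-0.79, adjusted p = 0.0525), and under scaling by library size or by hepatocyte markers, where the log2 fold change was -0.52 (edgeR adjusted p = 0.0867) and -0.58 (edgeR adjusted p = 0.150). Relative to the median of all genes these last values were -0.78 and -0.79, against -0.79 with TMM.

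Slc37a4 encodes the translocase that brings glucose 6-phosphate into the endoplasmic reticulum, where G6pc acts on it (chromosome 9, 44396852 to 44402968, plus strand). Its level was 90.6, 131 and 116 CPM in WT and 81.1, 148 and 83.9 CPM in CgA-KO livers. CgA-KO replicate 2 was again the highest of all and the other CgA-KO livers the lowest. The log2 fold change was -0.11, with an interval from -0.73 to 0.52 (edgeR adjusted p = 0.840), and it was 0.19 under library size alone and 0.07 under hepatocyte marker scaling, so no direction can be given.

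Gys2 encodes the glycogen synthase of liver and lies on chromosome 6 from 142422613 to 142473109, on the minus strand. Its counts were 1496, 5118 and 5916 in WT and 1254, 2536 and 1282 in CgA-KO livers, which is 134, 218 and 251 CPM against 58.2, 80.4 and 57.5 CPM. The highest CgA-KO liver stayed well below the lowest WT liver. The mean fell from 201 ± 60.1 to 65.4 ± 13.0 CPM (SD, n = 3), 3.07-fold lower, with a log2 fold change of -1.62 (SE 0.277, interval from -2.25 to -0.99, edgeR adjusted p = 0.00985). Gys2 was called in all 14 fits, the 6 that left out a library among them, with an adjusted p between 5.94e-07 (DESeq2) and 0.0460 (edgeR without WT replicate 3), and it was the only one of the 10 genes for which this held. Scaled by hepatocyte markers its log2 fold change was -1.40 (edgeR adjusted p = 0.0215).

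Pygl, the liver glycogen phosphorylase that releases glucose 1-phosphate from glycogen, lies on chromosome 12 from 70190811 to 70231488, on the minus strand. Its level was 191, 296 and 264 CPM in WT and 187, 199 and 163 CPM in CgA-KO livers. WT replicate 1 lay inside the CgA-KO range. The means were 250 ± 53.8 and 183 ± 18.6 CPM (SD, n = 3), a log2 fold change of -0.45 with an interval from -0.97 to 0.07 (edgeR adjusted p = 0.231).

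Gcgr, the G protein-coupled receptor through which glucagon raises cAMP in hepatocytes, lies on chromosome 11 from 120530699 to 120538986, on the plus strand. Its level was 249, 181 and 229 CPM in WT and 136, 143 and 133 CPM in CgA-KO livers. The CgA-KO values were tightly grouped and all lay below the lowest WT value. The means were 220 ± 35.3 and 137 ± 5.26 CPM (SD, n = 3), and the log2 fold change was -0.68 (SE 0.204, interval from -1.14 to -0.22). Gcgr missed the threshold by a little (edgeR adjusted p = 0.0618, unadjusted p = 0.00893). It passed with DESeq2 (log2 fold change -0.70, adjusted p = 0.00477) and in edgeR without WT replicate 2 (-0.80, adjusted p = 0.0454), and in none of the other 11 alternatives. An antisense gene overlaps Gcgr in the annotation and another overlaps Slc2a2. Neither has a row in the table, and the strand setting of the quantification is not given in the sources used here.

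Crtc2 encodes a coactivator of CREB that moves to the nucleus when glucagon signals and that insulin keeps in the cytoplasm, so its activity is set largely by phosphorylation (chromosome 3, 90254163 to 90264125, plus strand). It had 53.2, 37.6 and 57.6 CPM in WT and 52.9, 58.0 and 45.7 CPM in CgA-KO livers. The genotypes overlapped throughout. Its log2 fold change was 0.08, with an interval from -0.39 to 0.55 (edgeR adjusted p = 0.840).

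**Figure D2:**
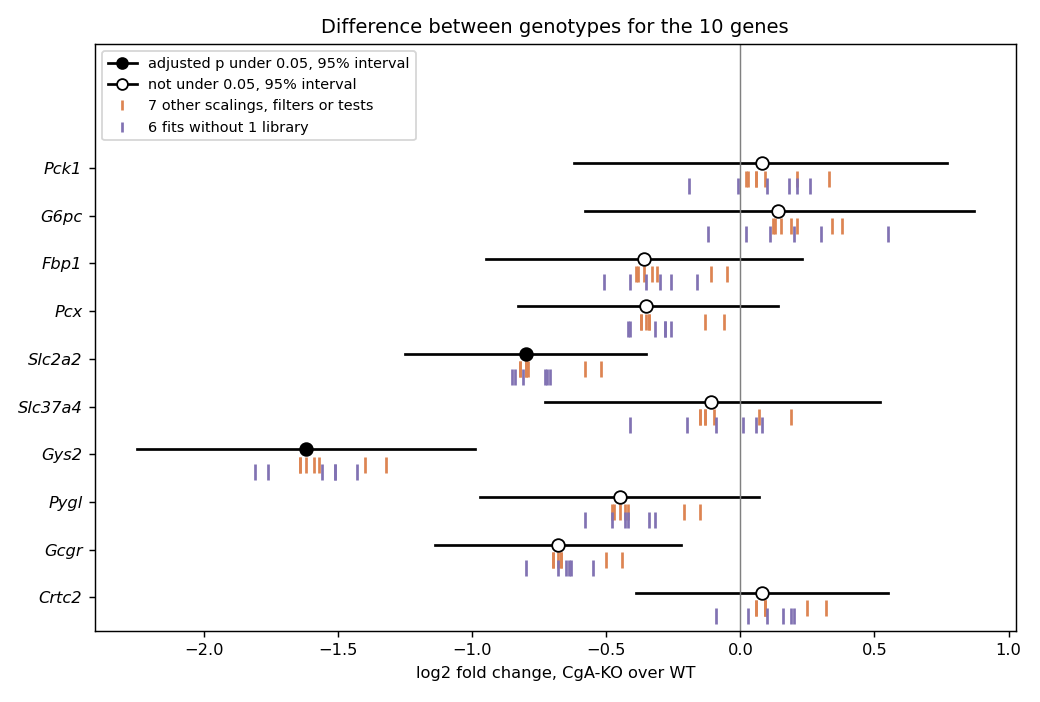
Log2 fold change of CgA-KO over WT for each of the 10 genes, from edgeR's quasi-likelihood fit with its 95% interval, with smaller marks for the alternative fits. Gys2 at -1.62 stays below 0 in every fit, while Pck1, G6pc, Crtc2 and Slc37a4 lie on both sides of 0 across fits.

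Exact two-sided permutation tests of single genes, which cannot go below 0.1 with 3 mice against 3, gave that minimum for Gys2, Slc2a2 and Gcgr, and 0.2 to 0.9 for the other genes. Replicate 2 was the highest CgA-KO library for 9 of the 10 genes, all but G6pc, and for 37.7% of all genes tested. It was also the highest for most of the gluconeogenic supply and glycolysis genes tested, which are described further on. Among WT livers the highest WT library was replicate 1 for 3 genes, replicate 2 for 5 and replicate 3 for 2. CgA-KO replicate 2 also had the highest summed hepatocyte markers of its genotype, 100827 CPM. The part of hepatocyte content in this ordering was not tested. The relative spread of Pck1 was 11.2% of the mean in WT and 33.0% in CgA-KO livers, and that of G6pc was 42.3% and 19.2%.

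Levels were also compared between genes as CPM per kb of the longest coding transcript. In WT livers Pck1 was first with 1020 ± 115 CPM per kb (SD, n = 3), followed by Fbp1 with 380 ± 101. Gcgr, G6pc, Pygl, Pcx and Gys2 came next, in that order, at mean levels from 112 down to 75.6 CPM per kb. None of them was above the gene next in rank by more than the SDs of both added together. Slc37a4, Slc2a2 and Crtc2 closed the order with 47.9 ± 8.62, 39.4 ± 4.06 and 18.0 ± 3.83. In CgA-KO livers Pck1 and Fbp1 were again first, with 1078 ± 356 and 296 ± 34.1 CPM per kb. G6pc at 95.3 ± 18.3 then stood above Gcgr at 70.1 ± 2.69, and Gys2 at 24.6 ± 4.91 was near Slc2a2 at 22.7 ± 2.45 and Crtc2 at 19.0 ± 2.25. The value per kb depends on the transcript chosen, which for Slc2a2 was 5569 bases long.

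At 3 points in the pathway an enzyme toward glucose output was set against one that works the other way. The ratio of such a pair within a library does not depend on how libraries are scaled. The pairs were written down with the values of the member genes known, and the ratios are log2 of counts per kb. The glycogen pair, Pygl over Gys2, had ratios of 0.34, 0.27 and -0.10 in WT and 1.51, 1.14 and 1.33 in CgA-KO livers. Breakdown enzyme RNA was near that of the synthase in WT and above it in every CgA-KO liver. The ratio was 2.23-fold higher in CgA-KO livers, a log2 difference of 1.16, and 1.02 to 1.25 when any 1 library was left out, a check added after the data were seen.

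At phosphoenolpyruvate, Pck1, which makes it from oxaloacetate, was set against Pklr, the liver pyruvate kinase, which turns it into pyruvate. The way back from pyruvate also needs Pcx (log2 fold change -0.35), which is not in the ratio. The log2 ratio was 4.63, 3.56 and 3.74 in WT and 5.75, 6.60 and 5.31 in CgA-KO livers. The genotypes again did not overlap, with a 3.76-fold higher ratio in CgA-KO livers (log2 difference 1.91, from 1.56 without CgA-KO replicate 2 to 2.24 without WT replicate 1). Pklr fell from 131, 219 and 230 CPM in WT to 49.9, 44.4 and 60.2 CPM in CgA-KO livers (log2 fold change -1.91, SE 0.264, edgeR adjusted p = 0.00522). At the fructose phosphate step, Fbp1 over Pfkl, the liver phosphofructokinase, had ratios of 5.54, 6.11 and 5.57 in WT and 5.53, 5.38 and 5.67 in CgA-KO livers, which overlapped, with a difference of -0.21. In exact two-sided permutation tests the Pygl and Pck1 pairs each had p = 0.1 (0.15 adjusted over the 3 pairs). In the same exact permutation test the Fbp1 pair had p = 0.4, where 0.1 is the smallest that 3 against 3 allows. The higher ratios went with lower Gys2 (log2 fold change -1.62) and Pklr (-1.91). Their numerators, Pygl (-0.45) and Pck1 (0.08), were not called. Since the pairs were chosen with member values known, these tests do not show a shift separate from the lower Gys2 and Pklr.

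**Figure D3:**
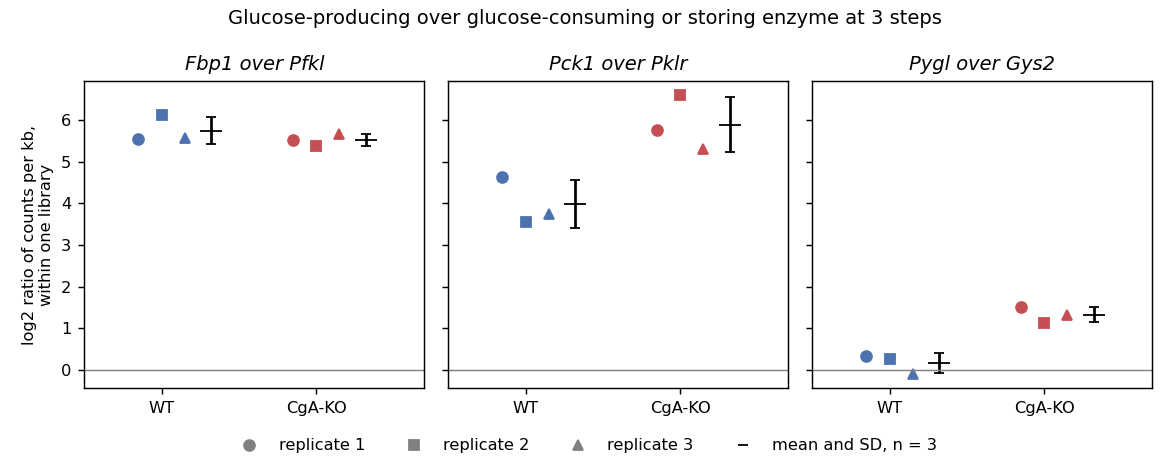
Log2 ratio of counts per kb of the enzyme toward glucose output over its opposing enzyme, in every library, at 3 points in the pathway. Points are single livers, with cross-bars and error bars for the mean and SD of 3. The CgA-KO livers lie above the WT livers for Pck1 over Pklr and Pygl over Gys2, and overlap them for Fbp1 over Pfkl.

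The neighbouring steps of the pathway were covered by lists of other genes. The counts of called genes in this and the later lists stand beside 12.4% called over all genes tested (8.6% higher, 3.84% lower). No list was tested against that share. Of 20 tested genes that supply gluconeogenesis (transaminases, lactate, glycerol and mitochondrial carriers and their enzymes), 2 were called higher and 1 lower, with a median log2 fold change of -0.17. Got1, the cytosolic aspartate aminotransferase, rose from 87.6, 125 and 111 CPM in WT to 321, 357 and 300.5 CPM in CgA-KO livers (log2 fold change 1.60, SE 0.219, edgeR adjusted p = 0.00513) and was called in all 14 fits. Slc16a1, the lactate and pyruvate carrier MCT1, rose from 34.8 ± 6.94 to 59.4 ± 9.56 CPM (log2 fold change 0.77, edgeR adjusted p = 0.0452), and Slc25a10, the mitochondrial dicarboxylate carrier, fell from 186 ± 15.3 to 101 ± 4.42 CPM (log2 fold change -0.88, edgeR adjusted p = 0.0179; SD, n = 3 for each). Slc16a1 was called in 6 of the 14 fits, and leaving out any library but WT replicate 2 ended its call, with an edgeR adjusted p of 0.195 without WT replicate 3, as did RLE factors, hepatocyte marker scaling and a replicate block. The call of Slc25a10 was lost without WT replicate 3 (edgeR adjusted p = 0.0865), CgA-KO replicate 1 (0.0762) or CgA-KO replicate 3 (0.0568) and with hepatocyte marker scaling (0.134). Pck2, the mitochondrial form of the carboxykinase, stood at 5.24 ± 0.790 and 7.67 ± 1.63 CPM (SD, n = 3) and was not called (edgeR adjusted p = 0.198).

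Of 16 genes of glycolysis and its regulators tested, pyruvate dehydrogenase kinases among them, 1 was called, and this was Pklr, with a list median of -0.09. Pklr was called in all 14 fits. Without WT replicate 1, 3 of the 16 were called, 1 higher and 2 lower. Beside Pklr these were Pdk1, lower, and Pdk4, higher, both pyruvate dehydrogenase kinases and both named after their values were seen. Neither was called with all libraries (edgeR adjusted p = 0.128 and 0.158).

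Of 18 glycogen handling genes tested beside Gys2 and Pygl, 2 were called lower and 1 higher, with a median of -0.08. Stbd1, which tethers glycogen to membranes, fell from 97.1, 143 and 107 CPM to 27.0, 65.7 and 25.7 CPM (log2 fold change -1.55, edgeR adjusted p = 0.0288). Ppp1r3b and Ppp1r3c encode glycogen-targeting subunits of protein phosphatase 1. With TMM scaling Ppp1r3b fell from 118 ± 10.7 to 69.9 ± 12.5 CPM (log2 fold change -0.76, edgeR adjusted p = 0.0430) and Ppp1r3c rose from 15.2 ± 6.19 to 37.7 ± 16.1 CPM (log2 fold change 1.30, edgeR adjusted p = 0.0481; SD, n = 3 for each). Gbe1, the branching enzyme, stood at 86.8 ± 17.8 and 56.5 ± 15.7 CPM and was not called (edgeR adjusted p = 0.143). Neither of these calls held in any of the 6 fits without 1 library, with an edgeR adjusted p of 0.0571 to 0.150 for Ppp1r3b and 0.0528 to 0.188 for Ppp1r3c, and they were made in 5 and 3 of the 14 fits. Both were also lost with hepatocyte marker scaling and with no filter, Ppp1r3b with library size alone, and Ppp1r3c with RLE factors, limma-voom and a replicate block. The call of Stbd1 was made in 9 of the 14 fits and was lost with library size alone (edgeR adjusted p = 0.0629) and without WT replicate 2 (0.124), WT replicate 3 (0.0998), CgA-KO replicate 1 (0.107) or CgA-KO replicate 3 (0.0773). None of the 18 genes was called by edgeR without WT replicate 2, WT replicate 3, CgA-KO replicate 1 or CgA-KO replicate 3, though 5 or 6 were at an unadjusted p under 0.05 in each of these fits. Without CgA-KO replicate 2 the call was Stbd1 alone. Without WT replicate 1 the calls were Stbd1 and Ugp2, the UDP-glucose pyrophosphorylase, named after its values were seen, which was called in no other fit (edgeR adjusted p = 0.0485 there and 0.200 with all libraries).

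Of 30 genes of glucagon and cAMP control tested, 2 were called higher and 1 lower, with a median of 0.00. Igfbp1, an insulin-repressed and cAMP-induced secreted protein, rose from 19.1, 7.32 and 6.40 CPM in WT to 37.7, 158 and 91.7 CPM in CgA-KO livers (log2 fold change 3.16, SE 0.582, edgeR adjusted p = 0.0125). The lowest CgA-KO liver was above the highest WT liver, and the CgA-KO values differed widely among themselves. Its call was lost without WT replicate 2 (edgeR adjusted p = 0.103) or WT replicate 3 (0.0999) and with no filter (0.0805). Nr4a1, an orphan nuclear receptor induced early by cAMP, rose from 1.63 ± 0.994 to 7.75 ± 2.13 CPM (SD, n = 3; log2 fold change 2.31, edgeR adjusted p = 0.0140), a call lost without WT replicate 3 (edgeR adjusted p = 0.0732) or CgA-KO replicate 2 (0.0515). Adcy6, an adenylyl cyclase, fell from 75.8 ± 18.1 to 36.3 ± 0.590 CPM (SD, n = 3; log2 fold change -1.06, edgeR adjusted p = 0.0161), a call lost without WT replicate 3 or any 1 CgA-KO library (edgeR adjusted p = 0.0539 to 0.0816), with library size alone (0.0968) and with hepatocyte marker scaling (0.172). Ppargc1a, the coactivator PGC-1α, Foxo1, the insulin-restrained activator of G6pc, and Sik1, the kinase that restrains CRTC2, had log2 fold changes of 0.58, 0.22 and 0.26, and none was called (edgeR adjusted p = 0.149, 0.621 and 0.717).

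**Figure D4:**
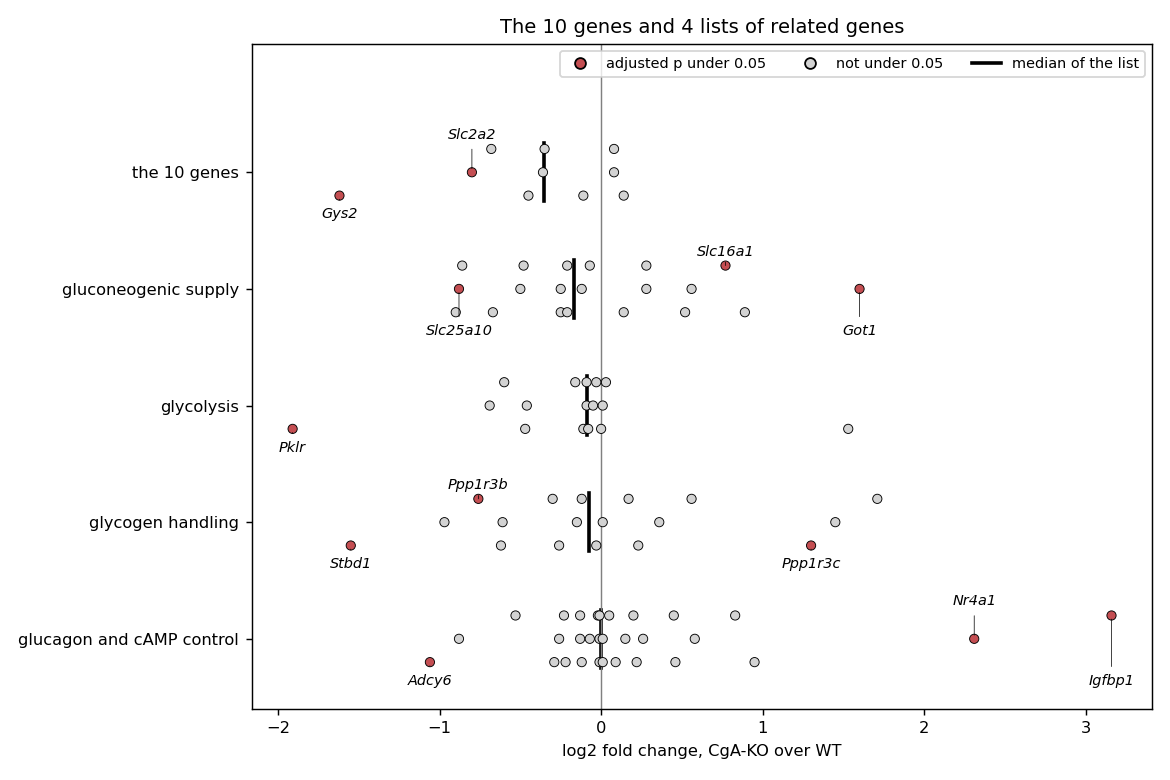
Log2 fold change of CgA-KO over WT for every tested gene of the 4 neighbouring lists and of the 10 genes of glucose output; filled points are genes called by edgeR's quasi-likelihood test and lines are medians. The medians lie between -0.35 and 0.00, and called genes fall on both sides of 0 in every list but those of glycolysis and of the 10 genes.

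Other cell and time programmes that could move with these genes were measured in the same libraries. Of 12 clock genes, 2 were called higher and 5 lower, their summed level was 734 to 1065 CPM in WT and 388 to 463 CPM in CgA-KO livers, and their median log2 fold change was -0.88. Clock genes cycle over the day, as do Gys2 and Pck1 in liver, and the part of the hour of collection in these values was not tested. Of 11 periportal markers 1 was called, and of 10 pericentral markers 1, both higher, with medians of 0.20 and 0.21 and overlapping summed levels (5381 to 9508 and 6969 to 8268 CPM for periportal, 6980 to 11213 and 6695 to 13253 CPM for pericentral, WT then CgA-KO). At an unadjusted edgeR p under 0.05 were 4 periportal markers (3 higher, 1 lower) and 3 pericentral markers, all higher. DESeq2 called 4 periportal markers (3 higher, 1 lower) and 2 pericentral markers, both higher. Among other cell types, 4 of 10 stellate markers were called higher (186 to 241 CPM in WT, 368 to 506 CPM in CgA-KO livers), as were 6 of 11 lymphocyte and neutrophil markers (10.8 to 50.0 and 69.5 to 389 CPM). Of 10 endothelial markers 2 were higher and 1 lower (227 to 244 and 211 to 291 CPM), and none of 6 cholangiocyte markers was called by edgeR or DESeq2, with 1 at an unadjusted p under 0.05. No marker was at 0 in every library, and the part of these cell types in the lower Gys2 and Slc2a2 was not tested.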

How the data were processed

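Poly(A)-selected RNA of 3 WT and 3 CgA-KO livers was sequenced, and the values are the counts that the authors deposited, 32212 symbols by 6 libraries, unscaled. Per the labels, the authors used Salmon 1.4.0 on GRCm38. How transcripts were summed to genes is not given in the sources used here. A total of 78 rows repeat a symbol, none of them a gene discussed here. Replicates of one genotype differed beyond counting noise (chi-square of 29.9 to 190 per degree of freedom), and each was kept as a sample. P-values of the fits set the difference between genotypes against the spread between mice of one genotype, 6 mice in all. That spread was estimated for each gene with information shared across genes.

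Counts were fitted with edgeR 4.0.16 in R 4.3.3 (filterByExpr with a minimum count of 10, TMM, robust quasi-likelihood, two-sided, Benjamini-Hochberg). Intervals are 95%, and TMM factors ran from 0.756 to 1.12. Intervals and floors of 3 counts (0.0965 to 0.284 CPM) cover what they name only, the latter counting error. The 13 alternatives were DESeq2 1.42.0, limma-voom (limma 3.58.1), RLE factors, library size alone, scaling by hepatocyte markers, no filter, a replicate block and 6 fits without 1 library.

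The member genes, the lists and the opposing pairs were chosen with earlier results of these data known. All 10 members are named. From each of 4 pathway lists, called genes (up to 4 per direction with the smallest p) and a fixed set of regulators are named, and cell type, zonation and clock lists are given by counts and sums. A few genes that the rule or the lists cover are not reported here and were left out of the list counts. Of the 15 hepatocyte markers listed, 14 had a row. Coordinates are from GENCODE M21. Promoters are RefSeq windows. The procedure was also run on simulated counts in which fewer genes were changed than were called here. No result given here rests on that run. Figures used matplotlib 3.10.9 in Python 3.11.15.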

Additional observations from a re-analysis of the deposited data

How the results depend on the processing

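Gys2 was the only member called in all 14 fits, and 0 members were called higher in any. Members called numbered 2 with TMM and 1 with library size alone, with hepatocyte marker scaling and with no filter, and 1 to 2 when 1 library was left out. Their median log2 fold change, -0.35, was -0.06 with library size alone and -0.12 with hepatocyte marker scaling, where the median of all genes was 0.26 and 0.21, and -0.46 to -0.22 with 1 library left out. Slc37a4 changed sign with library size alone (0.19) and hepatocyte marker scaling (0.07). Over fits without 1 library Slc37a4 ran from -0.41 to 0.08, Pck1 from -0.19 to 0.26, G6pc from -0.12 to 0.55 and Crtc2 from -0.09 to 0.20, none of them called.

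Genes called over the table numbered 1726, 2592 with DESeq2 (1634 higher, 958 lower) and 826 with hepatocyte marker scaling. With 1 library left out they were 394 to 2126, with 394 without WT replicate 3, 744 without CgA-KO replicate 1, 841 without WT replicate 2 and 976 without CgA-KO replicate 2. The share of calls that were higher was 69.1% with TMM and 86.6% both with library size alone (1493 calls) and with hepatocyte marker scaling.

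Gluconeogenic supply genes called were 3, 6 with DESeq2, 1 with hepatocyte marker scaling and 1 to 4 with 1 library left out. Genes called in the list of glycolysis and its regulators were 1, 2 with limma-voom (Pdk4 the addition) and 1 to 3 with 1 library left out. Glycogen handling genes were 3, 1 with library size alone, 1 with hepatocyte marker scaling, 1 with no filter and 0 to 2 with 1 library left out. Glucagon and cAMP control genes were 3, and 0 to 4 with 1 library left out, the 0 being without WT replicate 3 (4 at an unadjusted p under 0.05). The cause of these changes was not tested.

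With 3 mice a genotype, the 95% intervals of Pck1 (-0.62 to 0.77) and G6pc (-0.58 to 0.87) left room for differences of either sign. Those bounds are not the smallest difference that would have been called, since calls used the p-value adjusted over all genes. Deviations from the genotype mean had correlations of 0.199, 0.0127 and -0.0659 between same-numbered libraries, and -0.264 to 0.234 between differently numbered ones. With 3 libraries a genotype this check cannot decide whether the numbers pair mice. A replicate block gave 1498 calls over the table and 2 among the members.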

Other observations

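The paralogs of the member genes, chosen after the members' values were seen, give the forms that other tissues use. Pygb, the brain-type glycogen phosphorylase, was at 4.21, 2.30 and 1.91 CPM in WT and 11.7, 10.6 and 7.53 CPM in CgA-KO livers. The genotypes did not overlap, and Pygb rose by a log2 fold change of 1.85 (SE 0.348, edgeR adjusted p = 0.0130), from a level far below that of Pygl. Slc2a3, which encodes the glucose transporter GLUT3, rose from 1.96 ± 0.225 to 5.60 ± 1.65 CPM (SD, n = 3; log2 fold change 1.52, edgeR adjusted p = 0.0195). Slc2a1, which encodes GLUT1, stood at 11.1, 8.25 and 10.6 CPM in WT and 14.0, 17.0 and 12.6 CPM in CgA-KO livers, without overlap but not called (log2 fold change 0.54, edgeR adjusted p = 0.134). The summed macrophage markers, 126 to 332 CPM in WT and 1261 to 1966 CPM in CgA-KO livers, were higher in the same livers. So were the summed lymphocyte and neutrophil markers (10.8 to 50.0 and 69.5 to 389 CPM) and stellate markers (186 to 241 and 368 to 506 CPM). The part of these cell types in the values of Pygb and Slc2a3 was not tested.

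Gys1, the muscle-type glycogen synthase, was at 3.47 ± 1.64 and 4.01 ± 1.46 CPM (SD, n = 3; edgeR adjusted p = 0.795), and Pygm, the muscle-type phosphorylase, at 0.740 ± 0.325 and 0.805 ± 0.318 CPM (edgeR adjusted p = 0.857). G6pc2 had 0 counts in all 6 libraries, which allows up to 0.284 CPM in the shallowest.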
